A study of Mus musculus with 2 samples.

Results

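The Sox transcription factors of the SoxB, SoxC and SoxE classes were read in posterior tissue of mouse embryos of 13 somites, with Cdx2+/-Cdx4-/- mutants set against wildtypes. The mutants carry 1 intact copy of Cdx2 and none of Cdx4, and neither strain nor sex is given in the sources used here. Tissue behind the last formed somite boundary was pooled from 7 embryos per genotype, and the mutant and wildtype pools were hybridised together on 2 dual-colour arrays with the dyes exchanged. On replicate 1 the mutant RNA was labelled with Cy5, and on replicate 2 with Cy3. The labels do not say whether both arrays used the same RNA extracts. They were treated here as 1 comparison of 1 pool per genotype. On that reading no test between genotypes is possible, and every SD below is that of 2 arrays and is technical. Of the targeted genes, Cdx4 had signals of 199 and 177 in the mutant pool, against 686 and 1295 in the wildtype pool, and log2 ratios of -2.61 and -2.44. Cdx2 had log2 ratios of 0.02 and -0.12. The labels do not say whether either probe lies in the altered part of its gene.

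The 10 genes were Sox1, Sox2 and Sox3 (SoxB1), Sox21 (SoxB2), Sox4, Sox11 and Sox12 (SoxC), and Sox8, Sox9 and Sox10 (SoxE). They were matched by the files' gene name or accession to 14 probes, out of 33002 genes on the array. Entries that matched no RefSeq gene, some named only by their probe, count as genes in that total. They also count in every share of all detected genes below. The set was chosen by its log2 ratios of mutant over wildtype on these same arrays, the Sox2 ratio above all, so those ratios are given as a description. Of the 10 genes, 9 were detected, which means that their probe was well above background in the same genotype on both arrays, by the scanner software's flag. Sox3 was not. A gene was counted as higher or lower when the log2 ratio of mutant over wildtype reached 0.58 (1.5-fold) in the same direction on each array.

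Sox proteins bind DNA through an HMG domain and usually act with partner factors. SoxB1 proteins keep neural progenitors undifferentiated, and Sox2 is also present in the neuromesodermal progenitors of the tail end, which give rise to both spinal cord and paraxial mesoderm. SoxB2 proteins repress much the same targets, SoxC proteins act as neural cells begin to differentiate and in mesenchyme, and SoxE proteins act in neural crest, glia and cartilage. Cdx proteins promote posterior growth of the axis, partly through the tail-end progenitors.

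Sox2 was the member that stood apart. It was 1.75-fold higher in the mutant pool and was the 1 of 9 detected members past 1.5-fold on each array in the upward direction, where 0.211% of all 26069 detected genes were. None was lower, where 0.23% of all detected genes were. Sox4 and Sox11 were above 0 on both arrays at 1.26-fold and 1.19-fold. Sox1 reached 1.5-fold on replicate 2 alone, where 0.99% of all detected genes were higher by that size, and not on replicate 1, where 0.357% were. Log2 ratios of opposite sign on the arrays were found for 3 of 9 members, all of them SoxE genes, and for 52.3% of all detected genes.

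**Figure D1:**
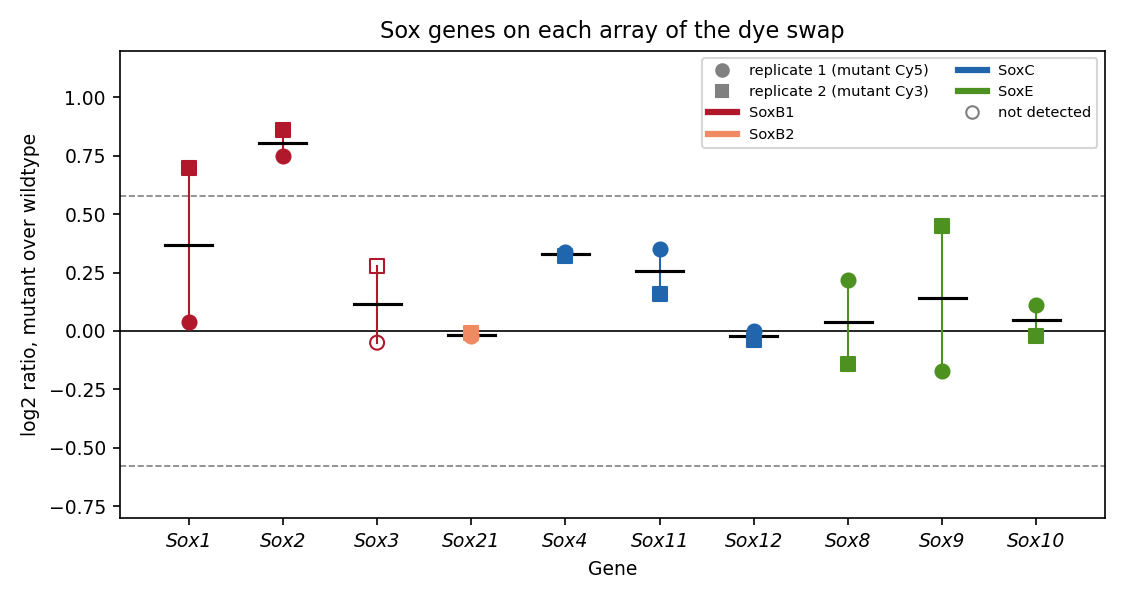
Log2 ratio of mutant over wildtype (vertical axis) for the 10 Sox genes (horizontal axis), with circles for replicate 1, squares for replicate 2 and black bars for their mean; dashed lines mark 1.5-fold and open symbols a gene that was not detected. Both Sox2 points lie above the upper line, the Sox1 points lie at 0.04 and 0.70, and the Sox4 points lie close together at 0.34 and 0.32.

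Sox2, the SoxB1 factor of pluripotent cells and neural progenitors, was read by a single probe at 3:34454803-34454863. Probe positions are those of the array files, which name no genome build. The files do not say where probes lie within a transcript. The mean spot signal of Sox2 was 604 (Cy5) and 384 (Cy3) in the mutant pool, against 261 (Cy3) and 357 (Cy5) in the wildtype pool. After normalisation its log2 levels were 8.79 and 8.84 in the mutant pool and 8.04 and 7.97 in the wildtype pool. Both mutant values lay above both wildtype values on either scale. The arrays gave log2 ratios of 0.75 and 0.86, with a mean of 0.81 ± 0.08 (SD of 2 arrays). For comparison, genes of like intensity had a pooled SD between arrays of 0.14. Sox2 ranked 39 of the 55 genes that were higher, by the smaller of its array ratios, and 40 of 26069 by its mean. With median centring in place of loess the arrays gave 1.11 and 0.39, so the second fell short of the size rule and the call ended. In bulk tissue, more cells that hold Sox2 RNA and more Sox2 RNA per cell cannot be told apart.

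Sox1, a SoxB1 factor that appears as cells commit to a neural fate, was dim. Its probe at 8:12412327-12412386 had mean signals of 154 and 188 in the mutant pool and of 144 and 154 in the wildtype pool. The negative control spots had medians of 91 and 113 in the mutant channels and of 109 and 92 in the wildtype channels. The normalised log2 levels were 6.72 and 7.39 in the mutant pool, against 6.68 and 6.69 in the wildtype pool. The wildtype values were nearly the same and the mutant value was raised on replicate 2 alone. The log2 ratios were 0.04 and 0.70, a mean of 0.37 ± 0.47, and their spread exceeded the 0.20 of genes of like intensity. The scanner software's own ratios were 0.00 and 1.28, with errors of 0.54 and 0.67. Median centring, which uses no loess, gave 0.01 and 0.59, so the arrays disagreed there as well. A difference in Sox1 therefore rested on replicate 2, and no size is given for it.

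Sox3, the X-linked SoxB1 gene of neural progenitors, was not measured well enough for a ratio. Its probe, at X:52458879-52458933, had mean signals of 102 and 136 in the mutant pool and of 117 and 113 in the wildtype pool, close to the negative controls. The mutant signal was well above background on 1 of 2 arrays and the wildtype signal on 0. The normalised log2 levels were 6.07 and 6.53 in the mutant pool, against 6.12 and 6.25 in the wildtype pool. The mutant value lay below the wildtype value on replicate 1 and above it on replicate 2, and no fold is given.

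Sox21, a SoxB2 repressor expressed in overlapping neural progenitors, had ratios near 0. The brighter probe, at 14:110555690-110555749, had log2 levels of 8.10 and 8.33 in the mutant pool and of 8.11 and 8.34 in the wildtype pool. Levels differed more between the arrays than between the genotypes. Its log2 ratios were -0.02 and -0.01. A dimmer probe at 14:110556867-110556926 gave 0.18 and 0.22, at signals of 135 and 125 in the mutant pool and of 124 and 107 in the wildtype pool, where the software's errors were 0.96 and 2.32 on the log2 scale.

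**Figure D2:**
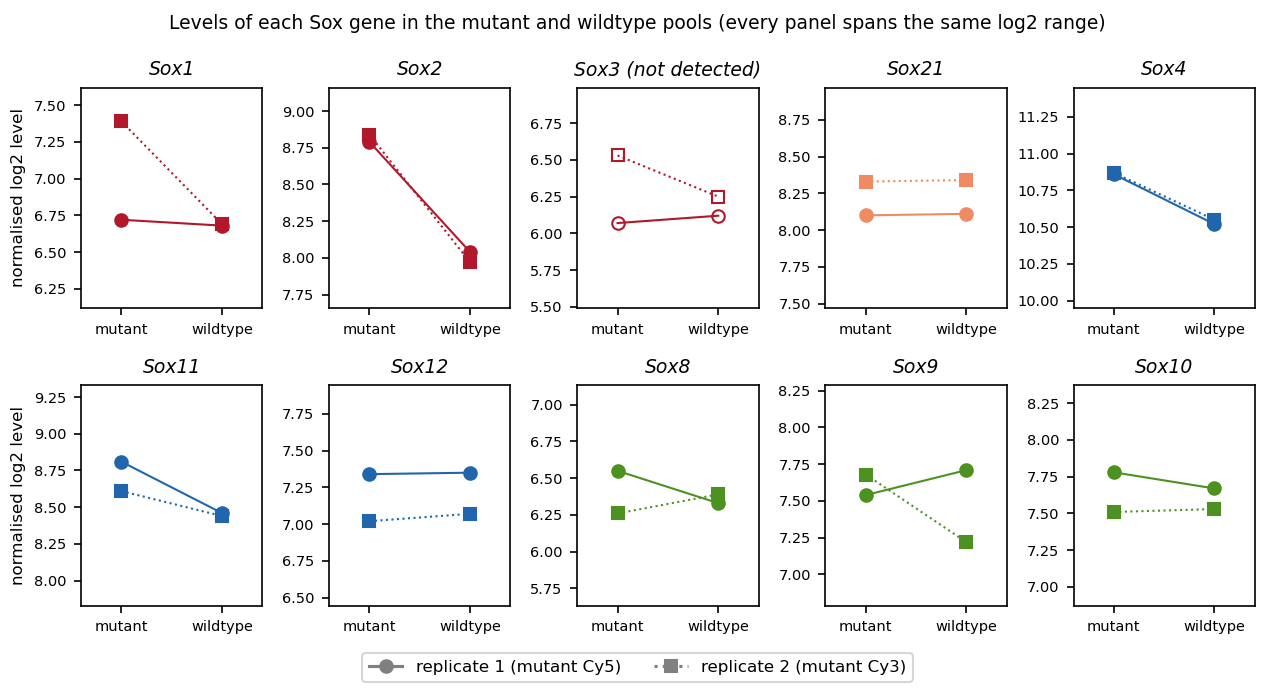
Normalised log2 levels (vertical axis) of each Sox gene in the mutant and wildtype pools (horizontal axis), with circles and solid lines for replicate 1 and squares and dotted lines for replicate 2. Both Sox2 lines slope down towards the wildtype pool from 8.79 and 8.84 in the mutant pool, whereas for Sox1 and Sox9 the lines of the arrays diverge.

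Among the SoxC genes, Sox4 and Sox11 were slightly above 0 in their ratios and Sox12 was near 0. Sox4, which acts in differentiating neural and mesenchymal cells, had log2 levels of 10.86 and 10.87 in the mutant pool against 10.52 and 10.55 in the wildtype pool at its brighter probe (13:28333294-28333353). The mutant levels lay above the wildtype levels on both arrays. The log2 ratio was 0.33 ± 0.02, from 0.34 and 0.32, and the size rule was not met. The dimmer Sox4 probe, at 13:28330370-28330429, gave 0.09 and 0.42. Both probes were thus above 0 on both arrays, with means of 0.33 and 0.26.

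Sox11, the close relative of Sox4 in the neural tube, had log2 levels of 8.81 and 8.61 in the mutant pool and of 8.46 and 8.44 in the wildtype pool (12:22304829-22304889). The groups did not overlap, and the log2 ratio was 0.26 ± 0.13, from 0.35 and 0.16. A further 2 probes, filed as 6230403H02Rik, lie 3.95 and 6.75 kb from the Sox11 probe in the files' coordinates. RefSeq lists that name as a synonym of Sox11, but the match is neither by gene name nor by accession, so they were kept apart. The brighter gave 0.35 and 0.58, and the other gave 0.47 and 0.31. All 3 probes of the locus were above 0 on both arrays, the synonym probes at means of 0.46 and 0.39, and none met the size rule.

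Sox12, the third SoxC gene, had log2 levels of 7.34 and 7.02 in the mutant pool and of 7.35 and 7.07 in the wildtype pool at 2:152460647-152460706. Its log2 ratio was -0.02 ± 0.03, and a dimmer probe at 2:152457875-152457934 gave -0.08 and 0.13. With median centring, the signs of Sox4 and Sox11 differed between the arrays (0.83 and -0.34 for Sox4, 0.73 and -0.32 for Sox11), while their means stayed at 0.25 and 0.21.

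The SoxE genes did not differ between the pools by more than the arrays did. Sox9, required for cartilage and active in neural crest and notochord, had log2 levels of 7.54 and 7.68 in the mutant pool and of 7.71 and 7.22 in the wildtype pool (11:112458453-112458512). The groups overlapped, and the log2 ratios of -0.17 and 0.45 had opposite signs, with a mean of 0.14 ± 0.44 against a pooled SD of 0.16 for genes of like intensity. The second Sox9 probe, whose ends at 11:112454125-112454977 lie farther apart than a probe is long, gave -0.08 and 0.06, and its wildtype signal was not well above background on replicate 2. Sox8, a neural crest and gonad factor, was dim, with signals of 135 and 122 in the mutant pool and of 125 and 123 in the wildtype pool. Its log2 ratios were 0.22 and -0.14 (17:24168540-24168599). Sox10, which specifies neural crest and its glia, had log2 levels of 7.78 and 7.51 in the mutant pool and of 7.67 and 7.53 in the wildtype pool, and log2 ratios of 0.11 and -0.02 (15:79490884-79490943).

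Set against each other, the SoxB1 genes had the higher log2 ratios, but that contrast rested on Sox2. The median of the 2 detected SoxB1 genes was 0.59, from 0.39 on replicate 1 and 0.78 on replicate 2. The other 7 members had a median of 0.05, from 0.11 on replicate 1 and -0.01 on replicate 2, with means between -0.02 and 0.33. All detected genes had a median of 0.00. When the undetected Sox3 was let in, the SoxB1 median became 0.37, which is the value of Sox1. By class the medians were 0.26 for SoxC, 0.05 for SoxE and -0.01 for Sox21. Both mutant levels lay above both wildtype levels for 4 of the 9 detected members (Sox1, Sox2, Sox4 and Sox11), and this held for 9.55% of all detected genes. For 0 of 9 both lay below, and this held for 10.7% of all detected genes. Since the set was chosen with these ratios known, nothing is read from those shares. In the software's own ratios, 3 members exceeded their stated error in the same direction on both arrays, and these were Sox2, Sox4 and Sox11.

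**Figure D3:**
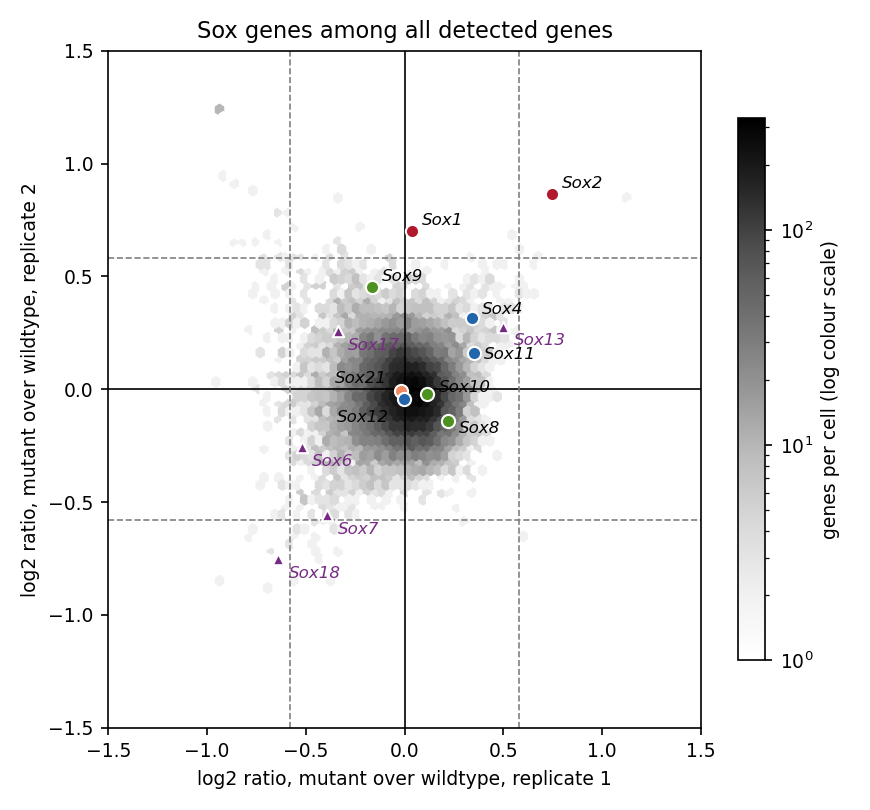
Log2 ratio on replicate 1 (horizontal axis) against replicate 2 (vertical axis) for all detected genes (grey density), with the Sox genes described here as circles (red SoxB1, orange SoxB2, blue SoxC, green SoxE) and 5 other Sox genes as triangles; dashed lines mark 1.5-fold and 17 genes lie outside the drawn range. Sox2 lies in the upper right corner past both lines, and Sox18 in the lower left one.

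The sequence before the gene start is shown for the 4 members whose mutant levels lay above the wildtype levels, Sox2, Sox1, Sox4 and Sox11, since Cdx proteins bind DNA at AT-rich sites. RefSeq promoter entries (GRCm38.p6) were matched for 7 of the 10 genes, and 250 bases before the start were used. The lines run 5′ to 3′ on the strand of the gene, at chr3:34649745-34649994 (plus) for Sox2, chr8:12395269-12395518 (plus) for Sox1, chr13:28953700-28953949 (minus) for Sox4 and chr12:27342719-27342968 (minus) for Sox11. Capitals mark TTTAT or its reverse complement ATAAA, the core of the Cdx recognition sequence.
Sox2: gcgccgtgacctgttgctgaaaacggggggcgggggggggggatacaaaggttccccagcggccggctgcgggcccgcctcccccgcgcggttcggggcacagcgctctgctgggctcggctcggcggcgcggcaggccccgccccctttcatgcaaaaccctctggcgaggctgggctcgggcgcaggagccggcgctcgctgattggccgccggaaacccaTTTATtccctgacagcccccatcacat
Sox1: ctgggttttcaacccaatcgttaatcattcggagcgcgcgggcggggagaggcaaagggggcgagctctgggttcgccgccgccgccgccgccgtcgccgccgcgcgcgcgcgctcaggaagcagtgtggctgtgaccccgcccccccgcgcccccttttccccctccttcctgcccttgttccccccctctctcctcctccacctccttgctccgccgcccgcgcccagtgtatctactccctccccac
Sox4: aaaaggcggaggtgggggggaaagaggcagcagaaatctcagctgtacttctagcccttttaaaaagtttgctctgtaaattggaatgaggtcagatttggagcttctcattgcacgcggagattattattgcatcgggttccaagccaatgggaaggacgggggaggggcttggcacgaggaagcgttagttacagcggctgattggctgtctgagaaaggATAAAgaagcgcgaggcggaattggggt
Sox11: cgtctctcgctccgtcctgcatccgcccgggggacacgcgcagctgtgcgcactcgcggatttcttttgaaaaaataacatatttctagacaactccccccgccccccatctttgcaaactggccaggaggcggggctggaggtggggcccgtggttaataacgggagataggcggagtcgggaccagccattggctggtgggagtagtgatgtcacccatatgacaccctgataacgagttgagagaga
Sox2 held 1 match that begins 27 bases before the start and Sox4 held 1 that begins 28 bases before it, while the other 5 matched members held none. On either strand, 37.3% of 32851 mouse promoters of the same length hold the motif, against 2 of 7 members. The same letters occur in TATA-like core promoter elements. The Sox core motif ACAAT, or ATTGT on the other strand, was in 0 of the 7, against 27.7% of all promoters. The share of G and C in these windows lay between 50.8% for Sox4 and 74.4% for Sox12, with 72% for Sox2, against a median of 52.4% over all promoters. A match is a description of letters and not a binding site.

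The remaining Sox genes did not match the increase of Sox2. Of 10 on the array 8 were detected, 0 were higher and 1 was lower by the size rule, with a median log2 ratio of -0.04. The gene that fell was Sox18, a SoxF factor of developing vessels, with signals of 407 and 244 in the mutant pool and of 415 and 611 in the wildtype pool and a log2 ratio of -0.70 ± 0.08. Chosen after their values were seen, the SoxF gene Sox7 had -0.39 and -0.56, and Sox17, of endoderm and endothelium, had -0.34 and 0.26. The SoxD genes Sox13, Sox6 and Sox5 had means of 0.39, -0.39 and -0.04. Sox13 was above 0 on both arrays, at 0.50 and 0.28, short of the size rule. Sox18 and Sox7 were low together with the endothelial markers. Of these markers 8 of 8, Sox18 among them, were below 0 on both arrays, where 24.4% of all detected genes were. All gene and marker lists here were chosen with earlier results of these data known, so nothing is read from their shares. The summed normalised intensity of the endothelial markers was 2691 and 2395 in the mutant pool and 3944 and 3804 in the wildtype pool. The part that a lower share of endothelium has in these values was not tested.

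Genes of neural progenitors that lie downstream of SoxB1 factors or are expressed with them were read for company to Sox2. None of the 9 detected passed the size rule in either direction. Their median log2 ratio was 0.15, with 6 above 0 and 2 below 0 on both arrays, where 23.3% and 24.4% of all detected genes were. The largest ratios were those of Sfrp2, a secreted Wnt modulator, at 0.47 ± 0.16 and of Irx3, a neural tube patterning factor, at 0.46 ± 0.25. Hes5 and Notch1, the Notch effector and receptor of neural progenitors, were at 0.38 ± 0.08 and 0.42 ± 0.03 and were named after their values were seen. Fabp7, a fatty acid binding protein of radial glia, lay on the other side at -0.36 ± 0.07.

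Neural tube markers gave no uniform shift beside Sox2. None of 4 detected passed the size rule, their median was 0.15, and Olig2 was not detected. Irx3 and Hes5 stand in this list as well as in the preceding one. The summed intensity of the neural tube list was 2462 in the mutant pool and 2287 in the wildtype pool on replicate 1. On replicate 2 it was 2758 in the mutant pool and 2559 in the wildtype pool. The mutant sum was thus the higher on each array, and the groups overlapped only across the arrays. Nkx6-1, the brightest of the list with signals of 1141 to 2284, had a mean of -0.09 at the probe used and 0.36 at another. Pax6 was near the negative controls, at signals of 106 to 127. Irx3 and Hes5 were above 0 on both arrays. In the gut endoderm list, which covers tissue that can also hold Sox2, 2 of 7 were higher, against 0.211% of all detected genes. These were Nepn and Trh, at log2 ratios of 1.87 and 1.98. Since the list was chosen with earlier results of these data known, nothing is read from that share. The list median was 0.13, and the members other than Nepn and Trh lay between -0.04 and 0.33. The summed intensity of that list was 2986 and 2999 in the mutant pool against 2246 and 1996 in the wildtype pool. Head markers, which posterior tissue should lack, had a median of 0.03 and sums of 903 and 795 in the mutant pool and of 867 and 797 in the wildtype pool. In the list of posterior and tailbud markers 1 of 8 was lower, Cyp26a1, a retinoic acid degrading enzyme of the tail end, at log2 ratios of -1.10 and -0.98. In all 4 of the 8 were below 0 on both arrays, T and Wnt3a among them, where 24.4% of all detected genes were. The list median was -0.05, and Cdx2, Nkx1-2, Fgf8, Hoxb9 and Evx1 had means between -0.05 and 0.10. The summed intensity was 7081 and 7305 in the mutant pool against 10025 and 10126 in the wildtype pool, so the groups did not overlap. That sum is largely set by T, with signals of 3653 to 10594, where the next brightest, Cyp26a1, had at most 1739. Whether the makeup of the pools had a part in the Sox2 value was not tested.

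The partner factors of SoxB1 proteins were mostly too dim to be informative. Of 6 detected POU and PAX genes 0 passed, with a median of 0.03. Pax6, Pou3f2, Pou3f3 and Pou5f1 had signals of 106 to 135, little above the negative controls, where the offset presses ratios towards 0. The largest ratios were Pou5f1 at 0.10 ± 0.26 and Pou3f1 at 0.09 ± 0.14. In the list of neuromesodermal genes and of the switch between neural and mesodermal fate, Cdx4 was the 1 of 10 that passed, and the median was -0.03. Brachyury (T) at -0.49 ± 0.03 and Wnt3a at -0.46 ± 0.05, a mesodermal factor and a ligand of the tail end, were named after their values were seen. Both had a sign opposite to Sox2 on each array without meeting the size rule. In that list 4 of 10 were below 0 on both arrays and 3 were above, against 24.4% and 23.3% of all detected genes. Those above were Sp5, Cdx1 and Fgf8, with means of 0.29, 0.19 and 0.10. Cdx1 was dim, at signals of 129 to 148, and Fgf8 had signals of 167 to 222. Tbx6, which represses Sox2 in paraxial mesoderm, had -0.05 and 0.18, and the progenitor gene Nkx1-2 had 0.08 and -0.08.

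For the SoxC genes, 1 of 7 detected proneural and neuronal genes was higher and 0 were lower. Dll1, a Notch ligand of both nascent neurons and presomitic mesoderm, had a log2 ratio of 0.67 ± 0.02, and the list median was 0.08. Neurog2, Neurod1, Neurod4 and Dcx were not detected. Tubb3, a tubulin of neurons, was at 0.13 ± 0.02.

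For the SoxE genes, 0 of 11 detected neural crest genes passed, with a median of 0.02. The largest ratios were Snai1 at -0.45 ± 0.20 and Msx1 at -0.30 ± 0.15. Among 8 cartilage matrix genes, several of them known targets of Sox9, 1 was higher and 0 were lower, with a median of 0.03. Col2a1, the collagen of cartilage and notochord sheath, had signals of 1803 and 974 in the mutant pool and of 474 and 840 in the wildtype pool. Its normalised log2 ratio was 1.22 ± 0.13, a 2.33-fold increase. In the same list Col11a1 had 0.32 ± 0.08 and Col9a1 had 0.25 ± 0.09, both short of the size rule, and Acan, Matn1, Comp and Fmod lay between -0.08 and 0.07 at dim signals of 107 to 158. Col2a1 was thus higher while its regulator Sox9 differed in sign between the arrays. Of 7 paraxial mesoderm and somite markers, Meox1, Tcf15 and Foxc2 were higher, against 0.211% of all detected genes. This list too was chosen with earlier results known, and nothing is read from that share. The list median was 0.06, and Tbx6, Msgn1, Pax3 and Mesp2 lay between -0.12 and 0.06 at the probes used. The list had summed intensities of 7620 and 7504 in the mutant pool and 6278 and 6170 in the wildtype pool. The part of these markers in the Col2a1 value was not tested.

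**Figure D4:**
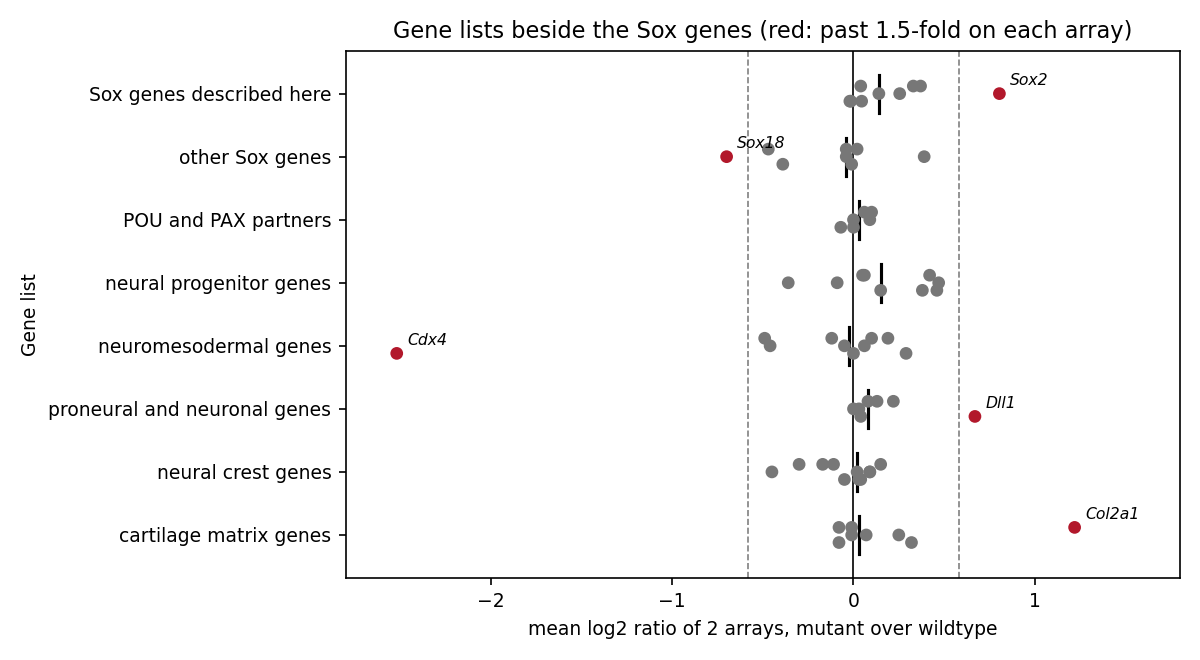
Mean log2 ratio of 2 arrays (horizontal axis) for each detected gene of the Sox set and of 7 gene lists (vertical axis), with black bars for medians and red points for genes past 1.5-fold on each array. In each list 1 gene at most is red, and the medians lie between -0.04 and 0.15.

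The size of a ratio depended on the processing. Across the processing alternatives that used both arrays, the mean log2 ratio of Sox2 lay between 0.71 and 1.0, that of Sox4 between 0.25 and 0.34, that of Sox1 between 0.26 and 0.64, that of Sox8 between 0.01 and 0.22 and that of Sox9 between 0.07 and 0.25. None of the other detected members passed the size rule in any of them.

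**Figure D5:**
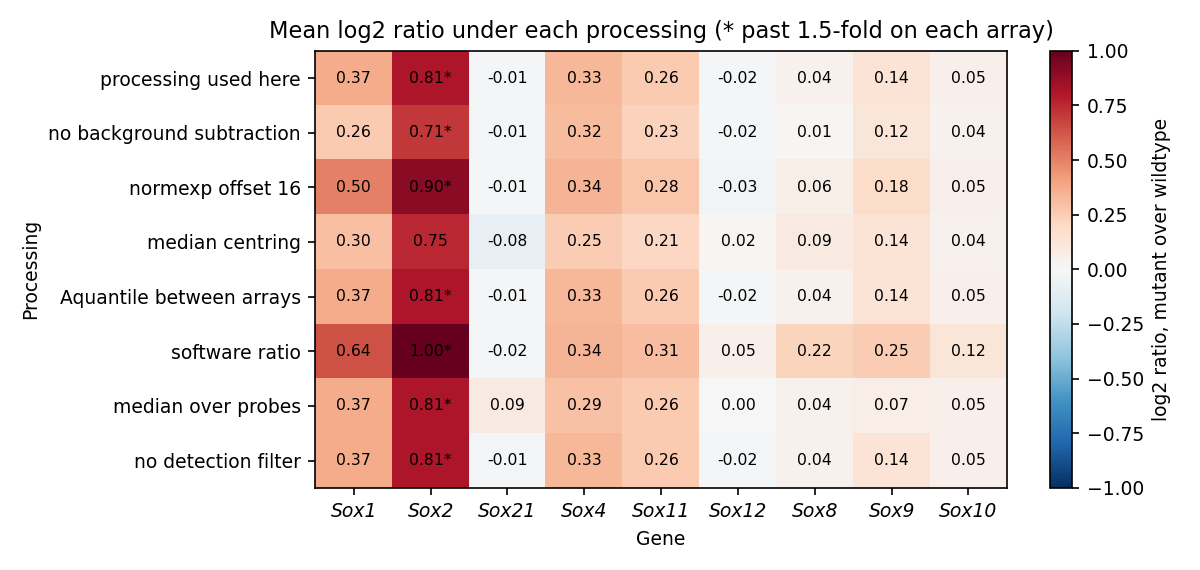
Mean log2 ratio of mutant over wildtype (colour and printed value) for the 9 detected Sox genes (horizontal axis) under each processing (vertical axis); an asterisk marks 1.5-fold on each array. Sox2 carries the asterisk under each processing except median centring, where its mean is 0.75.

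At the level of the arrays, 77.4% to 82.5% of the gene spots were well above background in either channel. No member probe was saturated or marked as non-uniform.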

How the data were processed

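The deposited intensity values are mean spot brightness and median local background in Cy3 and Cy5, uncorrected, per the file headers. A deposited log10 ratio (Cy5 over Cy3) and its error come from the same software, which detrended the background and applied LOWESS, per the file headers. Headers name Feature Extraction 7.5.1 and the submitters' processing notes 9.5.3.

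Signals were corrected by normexp (offset 50) and normalised by loess within each array, with control spots at weight 0, in limma 3.58.1 (R 4.3.3), and ratios were turned to mutant over wildtype. Levels were taken after Aquantile normalisation. Spots marked as non-uniform (205 on replicate 1, another 90 on replicate 2) were dropped. The brightest detected probe stood for a gene. A low signal shrinks ratios through the offset, and the number of arrays limits precision. Probe names were updated by accession (19435 probes), current symbol (3620) or synonym (2906) in RefSeq's GRCm38.p6 table. Another 544 matched several genes and, like the remaining 14508, kept the files' name. Members were matched by accession, or by symbol for Sox10 and Sox12. Genes named were all members and, per list, up to 4 past the size rule, or else the 2 with the largest absolute ratios. Exceptions are marked, or give other members of a list. Members and lists were chosen with earlier results of these data known. The steps were tested on simulated data, with sizes checked on bright probes only because the offset shrinks ratios of dim ones. Of the members only Sox4 had a probe that bright, so the sizes of the others, Sox2 among them, were not covered. The alternatives were no background subtraction, an offset of 16, median centring, Aquantile, the software's ratio, the median over probes, no detection filter, other folds and each array alone.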

Additional observations from a re-analysis of the deposited data

How the results depend on the processing

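No paired analysis was possible because no test between the pools was run, and every ratio is already a difference within 1 array. Among the members, the software's ratio moved Sox1 to 0.64, Sox2 to 1.0 and the SoxB1 median to 0.82, and without a detection filter that median was 0.37. On single arrays, where dye effects remain, Sox1 ranged from 0.04 to 0.70, Sox9 from -0.17 to 0.45, the SoxB1 median from 0.39 to 0.78 and the members past the size rule from 1 to 2. With median centring 0 members were past it, and with 2-fold 0. Counting the synonym probes as Sox11, an alternative added after the data were seen, put it at 0.46. No other member value moved by more than the pooled SD between arrays of 0.19. Against 55 higher and 60 lower genes, the counts were 27 and 16 with median centring (62.8% of calls higher, against 47.8%), 167 and 190 with the software's ratio, 140 and 196 at 1.3-fold, and 20 and 7 at 2-fold. The lower genes numbered 38 when no background was subtracted and 91 at an offset of 16. Single arrays gave 93 to 258 higher genes and 126 to 377 lower ones. Of 855 values of the 95 genes in the lists, 47 moved by more than that SD, and 0 genes that were called changed sign. The causes were not tested. Signal over background limits Sox1, Sox3 and Sox8.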
